A study of Arabidopsis thaliana with 24 samples.

Results

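GRX480 (AT1G28480, chromosome 1), SARD4 (AT5G52810, chromosome 5) and SAG101 (AT5G14930, chromosome 5) are 3 Arabidopsis thaliana genes tied to signalling by salicylic acid and pipecolic acid. They were chosen by name, with earlier results of these data known, as the probe sets annotated to a single one of these genes. This gave 3 probe sets, 1 for each gene, out of 22746 non-control probe sets on the array, and all 3 were bright enough to be among the 13648 tested. The platform annotation lists AT5G52810 by its locus number, and SARD4 is the name in common use.

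The measurements are signals from 24 Affymetrix ATH1 arrays of the whole aerial tissue of 2-week-old plants grown on soil, in 8 groups of 3 independent biological replicates. The wild type Col-0 was sprayed with 100 µM DCA (3,5-dichloroanthranilic acid), 100 µM INA (2,6-dichloroisonicotinic acid) or a dilute DMSO mock, and was harvested after 48 h or 6 d. The mutant npr1-3 was sprayed with DCA or mock and was harvested after 48 h only. DCA and INA are both dichlorinated aromatic acids, DCA an aminobenzoic acid and INA a pyridinecarboxylic acid, and both act as synthetic elicitors of plant defence. All groups lie in the Col-0 background, npr1-3 is 1 mutant allele, and the labels do not say how many plants went into a sample. The probe set of NPR1 is not analysed here, so the npr1-3 label was not checked on its own target. Of the marker genes of green tissue, RCA, which encodes rubisco activase, had signals of 17433 to 37164 on the 24 arrays. Of 9 root markers 3 are annotated: EXPA7 ran from 8.89 to 79.8, AT1G30870 from 6.39 to 68.02 and AT4G11290 from 95.6 to 316.

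Salicylic acid is a plant hormone of defence against biotrophic pathogens. NPR1 binds it and, with transcription factors of the TGA family, switches on many of its target genes. GRX480, also called ROXY19, is a CC-type glutaredoxin, a plant-specific class of small redox proteins. It binds TGA factors, and its overexpression represses the jasmonate-dependent defensin gene PDF1.2. SARD4 is a reductase that makes pipecolic acid from the lysine-derived product of ALD1. Pipecolic acid is then hydroxylated to N-hydroxypipecolic acid, a mobile signal of systemic acquired resistance. SAG101, first found as a gene of senescing leaves, encodes a lipase-like protein that pairs with EDS1 in immunity triggered by TIR-type receptors.

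The arrays were not alike in their spread. Among the tested probe sets, 4.58% and 5.68% lay more than 2-fold from the group mean on replicate 1 of DCA and of INA at 6 d, against 0.601% to 1.19% on replicates 2 and 3 of these groups. At 48 h the 3 Col-0 DCA arrays resembled each other closely, with 0.110% to 0.440% of probe sets that far out, whereas replicates 1 and 2 of the other 48 h groups had 3.30% to 5.00%. Changes are given as log2 differences from one limma model over all 24 arrays, with standard errors and 95% intervals. A gene was called when its p, adjusted by Benjamini and Hochberg over the 13648 probe sets, was under 0.05. Comparisons of DCA and of INA with mock at one time share the mock arrays, so their values stand side by side and are not independent.

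At 48 h all 3 genes had higher signals in treated than in mock Col-0 plants, with no overlap between arrays of either treatment and mock. With INA all 3 rose, by 5.55-fold for GRX480, 4.04-fold for SARD4 and 2.20-fold for SAG101. With DCA, GRX480 rose 5.84-fold and SAG101 rose 2.05-fold, whereas SARD4, at 2.53-fold, missed the threshold. Of all tested probe sets, 2.37% were called higher with INA and 1.98% with DCA. Groups did not overlap, with the treated arrays higher, for 10.1% of probe sets with INA and 15.3% with DCA. Because the 3 genes were chosen with earlier results of these data known, setting them beside these shares is no test. In whole aerial tissue, more RNA per cell and more cells of an expressing type cannot be told apart.

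**Figure D1:**
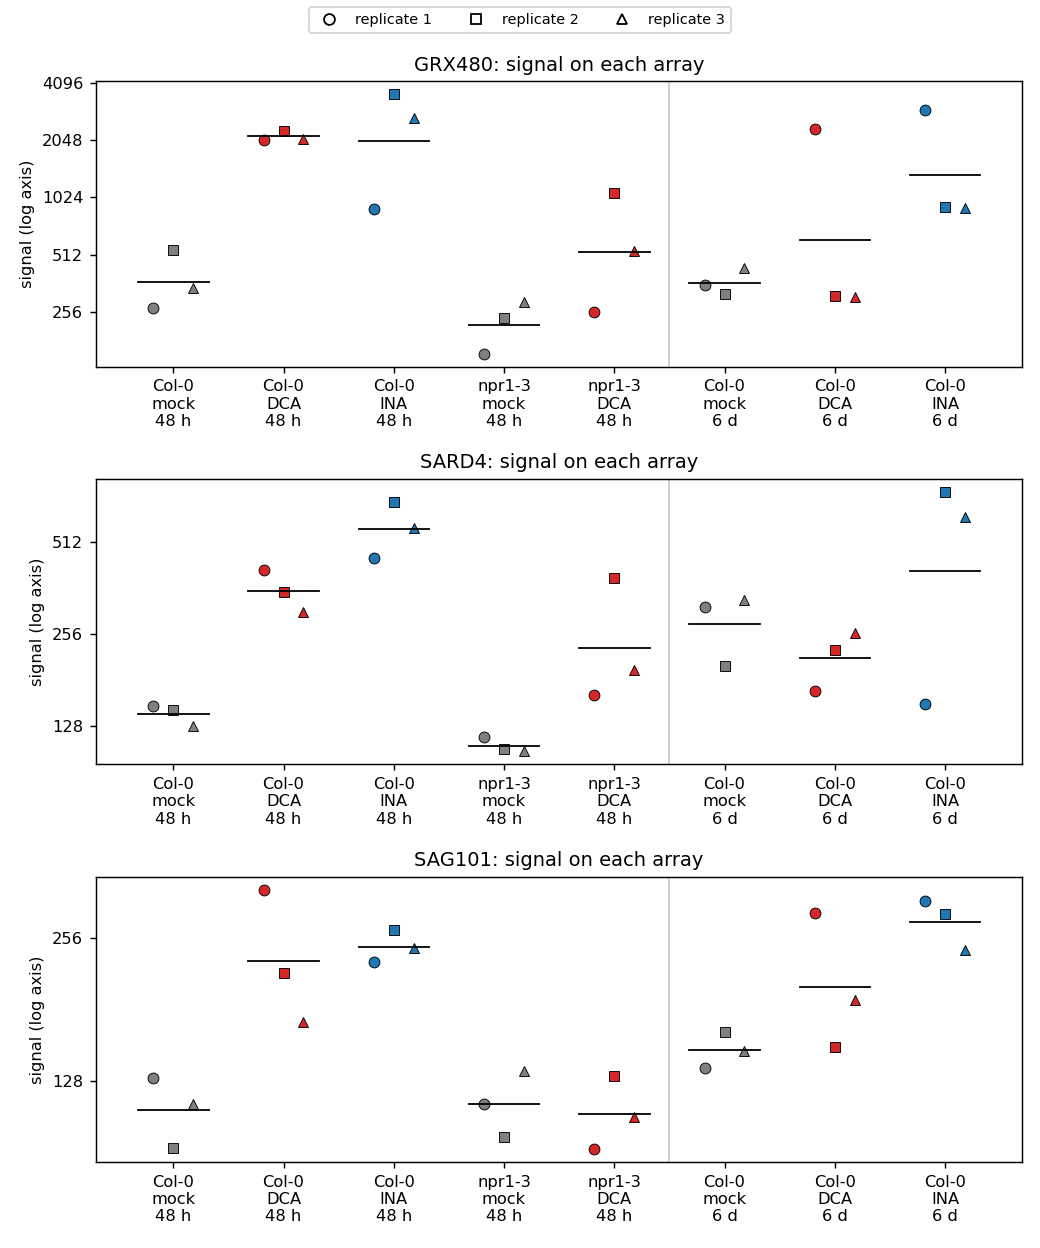
Signal of GRX480, SARD4 and SAG101 on each array (vertical axes, log scale) in the 8 groups of genotype, treatment and time (horizontal axes). Marker shapes give the replicate number and short bars the group means of the log2 signal. GRX480 spans 154.5 to 3564, with replicate 1 far above the others in both treated groups at 6 d.

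GRX480 had signals of 268, 539 and 343 on the mock arrays of Col-0 at 48 h. The DCA arrays had 2058, 2296 and 2089, close to one another and all above mock. The INA arrays had 886, 3564 and 2679.7, with replicate 1 lowest but still above every mock array. The log2 change was 2.55 ± 0.66 with DCA (95% interval 1.16 to 3.93, limma adjusted p = 0.0454) and 2.47 ± 0.66 with INA (1.09 to 3.86, adjusted p = 0.0495). Among the tested probe sets this was the 28th largest rise with DCA and the 68th with INA. The standard error pools the spread of all 8 groups. The SD of the log2 signal of GRX480 ran from 0.086 in Col-0 DCA at 48 h to 1.68 in Col-0 DCA at 6 d. Both calls lay near the threshold. That with DCA was lost when any single array of this comparison but mock replicate 2 was left out (adjusted p 0.118 to 0.218). That with INA was lost in the same way except without INA replicate 1, where the change was 3.07 with an adjusted p of 0.0205.

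At 6 d GRX480 had signals of 353, 319 and 433 in mock plants. The DCA arrays had 2342, 312 and 308, so that replicate 1 stood far above mock and the other two lay just below it. The INA arrays had 2955, 909 and 897, all above mock, as in 12.8% of probe sets. On the log2 scale the difference from mock was 0.74 ± 0.66 with DCA (-0.65 to 2.12, limma adjusted p = 0.93) and 1.88 ± 0.66 with INA (0.49 to 3.26, adjusted p = 0.177). Without DCA replicate 1 the change with DCA was -0.24. None of the 3 genes was called at 6 d with either compound, against 0% of all probe sets with DCA and 1.83% with INA. With DCA, 444 of the 13648 probe sets had an unadjusted p under 0.05, and none of the 3 genes was among them.

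In npr1-3, GRX480 had signals of 154.5, 237 and 289 in mock plants. The DCA arrays had 255, 1076 and 537, so that replicate 1 fell inside the mock range and the others lay above it. The difference was 1.27 ± 0.66 on the log2 scale (-0.12 to 2.65, limma adjusted p = 0.689). None of the 3 genes was called in this comparison, against 0.322% of all probe sets.

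Ordered by mean log2 signal, GRX480 was highest in Col-0 with DCA at 48 h. There followed INA at 48 h, INA at 6 d, DCA at 6 d, npr1-3 with DCA, Col-0 mock at 48 h, Col-0 mock at 6 d and npr1-3 mock. The ranges of neighbours in this order overlapped, except for the last step, where every npr1-3 mock array lay below every Col-0 mock array at 6 d.

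The list of CC-type glutaredoxins holds 21 genes, 17 of them annotated on the array and 16 tested, GRX480 included. Of the 15 other tested members, 0 were called against mock with either compound, at either time or in npr1-3. Called among all tested probe sets were 2.41% with DCA and 2.65% with INA at 48 h, and 0% and 1.83% at 6 d. In npr1-3 the share was 0.322% with DCA. At such shares, 0 of 15 does not set these members apart. Their median log2 change at 48 h was -0.20 with DCA (range -0.90 to 0.81) and -0.33 with INA (range -0.90 to 0.39). With INA, 13 of the 15 had a negative change, and 49.1% of all tested probe sets did.

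**Figure D2:**
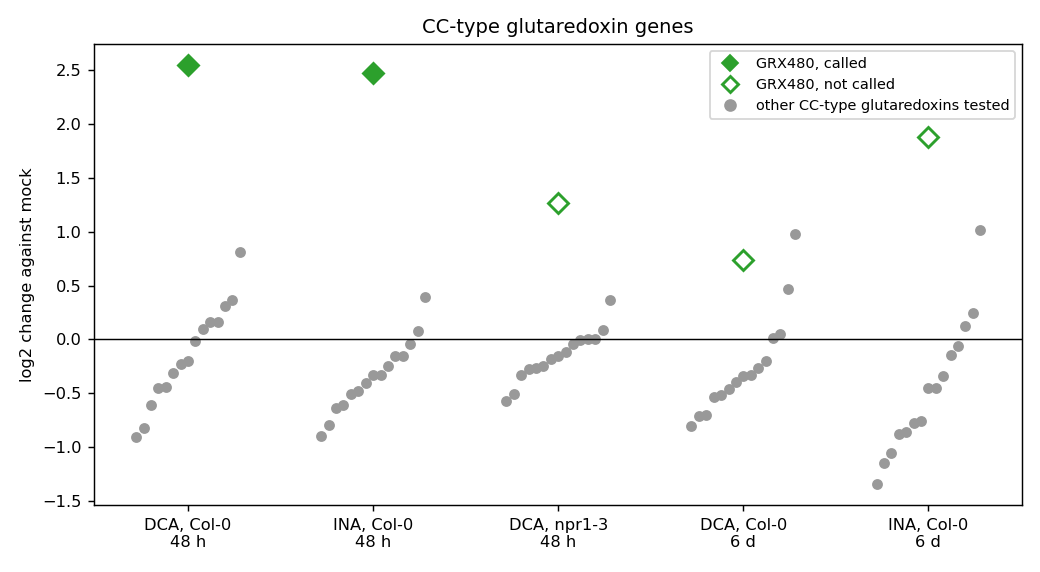
Log2 change against mock (vertical axis) of GRX480 (diamonds, filled where called) and of 15 other tested CC-type glutaredoxin genes (grey circles) in 5 comparisons (horizontal axis). GRX480 lies above all other members except with DCA at 6 d, where 1 other member, at 0.98, exceeds its 0.74.

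GRXC2 (AT5G40370), a cytosolic glutaredoxin with a CPYC-type active site, belongs to the list of other glutaredoxins, of which 5 members were tested and 0 were called against mock. That count too is near the shares of all probe sets given for the CC-type members. The signal of GRXC2 was 6621 ± 859 (SD, n = 3) in Col-0 mock and 8948 ± 277 with DCA at 48 h, a log2 change of 0.44 (limma adjusted p = 0.262). PDF1.2 (AT5G44420) and PDF1.2b (AT2G26020), the tested members of the list of jasmonate and ethylene defence, are near-identical defensin genes whose signals may mix. PDF1.2 had signals of 362, 132 and 375 in Col-0 mock at 48 h, 1335, 1196 and 1212 with DCA, and 219.8, 2055 and 1259 with INA. All DCA arrays were above mock, as in 15.3% of probe sets, and the INA arrays overlapped mock through replicate 1. Neither change was called, at 2.25 with DCA (limma adjusted p = 0.342) and 1.66 with INA (adjusted p = 0.673). At 6 d its INA arrays had 7945, 312 and 207, and its DCA arrays had 2149, 146 and 117, so the same replicate 1 arrays that were high in GRX480 were high in PDF1.2.

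SARD4 had signals of 148, 144 and 128 in Col-0 mock at 48 h. The DCA arrays had 415, 351 and 303 and the INA arrays 455, 695 and 570.3, so that mock, DCA and INA formed 3 groups without overlap. The log2 change was 2.01 ± 0.42 with INA (1.14 to 2.89, limma adjusted p = 0.00774). It was called without any single array too, at 1.87 to 2.17. With DCA it was 1.34 ± 0.42 (0.46 to 2.21, adjusted p = 0.108). The DCA change was called in 0 of 6 fits that left out 1 array (1.22 to 1.45, adjusted p 0.101 to 0.318). Of 6 other alternatives 2 called it, 1 of them the fit of only the arrays of both groups (adjusted p = 0.0148).

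At 6 d SARD4 had signals of 314, 201 and 332 in mock plants, 167, 227 and 257 with DCA, and 151, 749 and 621 with INA. The DCA arrays overlapped mock, and INA replicate 1 lay below every mock array while replicates 2 and 3 lay above them all. The log2 change was -0.37 ± 0.42 with DCA (-1.24 to 0.51, limma adjusted p = 0.93) and 0.58 ± 0.42 with INA (-0.29 to 1.46, adjusted p = 0.539). Without INA replicate 1 the INA change was 1.31 and was called (adjusted p = 0.0325). Mock plants themselves had more SARD4 signal at 6 d than at 48 h on every array, by 0.98 ± 0.42 (0.10 to 1.85, adjusted p = 0.271), and 18.2% of probe sets were higher at 6 d without overlap, SAG101 among them. None of the 3 genes was called between the mock times, against 0.212% of all probe sets.

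In npr1-3, SARD4 had signals of 118, 107 and 106 in mock plants and 161, 393 and 195 with DCA, all DCA arrays lying above mock. The log2 change of 1.07 ± 0.42 (0.19 to 1.94) had an unadjusted p of 0.0192 and a limma adjusted p of 0.524. Of all probe sets, 6.94% were higher with DCA in npr1-3 without overlap.

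Ordered by mean log2 signal, SARD4 was highest with INA at 48 h, followed by INA at 6 d, DCA at 48 h, Col-0 mock at 6 d, npr1-3 with DCA, DCA at 6 d, Col-0 mock at 48 h and npr1-3 mock. Only the last 2 steps separated neighbours without overlap. The list of genes from lysine to pipecolate and N-hydroxypipecolate holds 9 genes, 3 of them annotated on the array and 2 tested. The other tested member, AT4G33150, encodes the enzyme that breaks lysine down along a competing route. It was called in no comparison, with log2 changes of -0.80 with DCA (limma adjusted p = 0.514) and -0.21 with INA (adjusted p = 0.967) at 48 h. Of 7 regulators of salicylic acid and pipecolate synthesis, only EIN3 was tested, and it was called in no comparison. Of 21 genes of salicylic acid synthesis, transport and turnover, 3 were annotated on the array and 0 were bright enough for the test. Among them UGT74F1, a salicylic acid glucosyltransferase, ran from 4.18 to 15.7 and BSMT1, which methylates salicylic and benzoic acid, from 2.09 to 51.5. AT4G26120, a relative of NPR1 and the 1 annotated gene of the list of NPR, NIMIN and TGA proteins, ran from 1.78 to 75.6 and was not tested either.

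SAG101 had signals of 129.98, 92.6 and 115 in Col-0 mock at 48 h. The DCA arrays had 324, 216 and 171 and the INA arrays 228, 266 and 244, all above mock. The log2 change was 1.04 ± 0.25 with DCA (0.52 to 1.55, limma adjusted p = 0.0277) and 1.14 ± 0.25 with INA (0.62 to 1.66, adjusted p = 0.0109). The DCA call was lost when any single array but DCA replicate 3 was left out (adjusted p 0.0504 to 0.199). The INA call was lost only without mock replicate 2 (adjusted p = 0.0696).

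At 6 d SAG101 had signals of 136, 162 and 148 in mock plants, 288, 151 and 189 with DCA, and 307, 287 and 241 with INA. All INA arrays were above mock, and DCA replicate 2 lay inside the mock range. The difference from mock was 0.90 ± 0.25 with INA (0.38 to 1.42, limma adjusted p = 0.0718) and 0.44 ± 0.25 with DCA (-0.07 to 0.96, adjusted p = 0.93). In npr1-3 it had 115, 97.5 and 134 in mock plants and 92.2, 131 and 108 with DCA, overlapping groups that differed by -0.07 ± 0.25 (-0.59 to 0.45, adjusted p = 0.976). By mean log2 signal the order ran from INA at 6 d through INA at 48 h, DCA at 48 h, DCA at 6 d and Col-0 mock at 6 d to npr1-3 mock, Col-0 mock at 48 h and npr1-3 with DCA. Neighbours overlapped except for Col-0 mock at 6 d and npr1-3 mock.

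The list of the EDS1 family and helper NLR receptors holds 10 genes, 2 of them annotated on the array. Besides SAG101 this was AT3G48080, a near-identical copy of EDS1, so its signal may hold both copies. It had signals of 79.2, 30.4 and 32.05 in Col-0 mock at 48 h, 126.2, 136 and 195 with DCA, and 402, 198 and 266 with INA, without overlap between treated and mock arrays. Treated arrays lay above mock without overlap in 15.3% of probe sets with DCA and 10.1% with INA. Both members, SAG101 itself and AT3G48080, were called higher with both compounds at 48 h. Of all probe sets, 1.98% were called higher with DCA and 2.37% with INA. AT3G48080 rose by 1.81 with DCA (limma adjusted p = 0.0132) and by 2.70 with INA (adjusted p = 0.000229). With INA at 6 d it rose by 2.02 (adjusted p = 0.00568). The DCA call was lost without DCA replicate 3 (adjusted p = 0.0705) and without mock replicate 3 (adjusted p = 0.0864). In npr1-3, AT3G48080 had 34.5, 27.5 and 31.4 in mock plants and 70.05, 99.3 and 46.2 with DCA. There all DCA arrays lay above mock, as in 6.94% of probe sets, and the change was not called.

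The comparison of npr1-3 with Col-0 asks how far these transcripts depend on NPR1. With DCA, npr1-3 plants had 4.06-fold less GRX480 and 2.09-fold less SAG101 than Col-0, without overlap, and both fell past the threshold. SARD4 overlapped between the genotypes. Of all probe sets 6.33% were called lower, and 19% were lower without overlap. This comparison uses the same Col-0 DCA arrays as that of DCA with mock in Col-0, so the results are not independent. It sets these closely alike arrays against a group of wider spread. On npr1-3 DCA replicates 1 and 2, 3.76% and 3.80% of probe sets lay more than 2-fold from the group mean. On the Col-0 DCA arrays it was 0.110% to 0.440%. The effect of this on the calls was not tested. The log2 difference was -2.02 ± 0.66 for GRX480 (-3.41 to -0.64, limma adjusted p = 0.0498), -1.07 ± 0.25 for SAG101 (-1.58 to -0.55, adjusted p = 0.00872) and -0.61 ± 0.42 for SARD4 (-1.49 to 0.26, adjusted p = 0.348). The GRX480 call was lost when any single array but npr1-3 DCA replicate 2 was left out (adjusted p 0.104 to 0.209). The SAG101 call was lost only without Col-0 DCA replicate 1 (adjusted p = 0.0682).

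In mock plants none of the 3 genes was called between the genotypes, against 0.0806% of all probe sets. The log2 difference, npr1-3 minus Col-0, was -0.74 for GRX480 (-2.13 to 0.64), -0.34 for SARD4 (-1.22 to 0.53) and 0.04 for SAG101 (-0.48 to 0.56). All npr1-3 mock arrays of SARD4 lay below all Col-0 mock arrays at 48 h, as did 6.41% of probe sets.

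The test of the difference itself, the response to DCA in npr1-3 minus that in Col-0, called none of the 3 genes and 0.00733% of all probe sets. SAG101 differed by -1.11 ± 0.35 (-1.84 to -0.37), with an unadjusted p of 0.00495 and a limma adjusted p of 0.961. GRX480 differed by -1.28 ± 0.94 (-3.24 to 0.68, adjusted p = 0.961) and SARD4 by -0.27 ± 0.59 (-1.51 to 0.97, adjusted p = 0.971). A smaller response in npr1-3 was therefore not established for any of the 3 genes after adjustment over all probe sets.

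**Figure D3:**
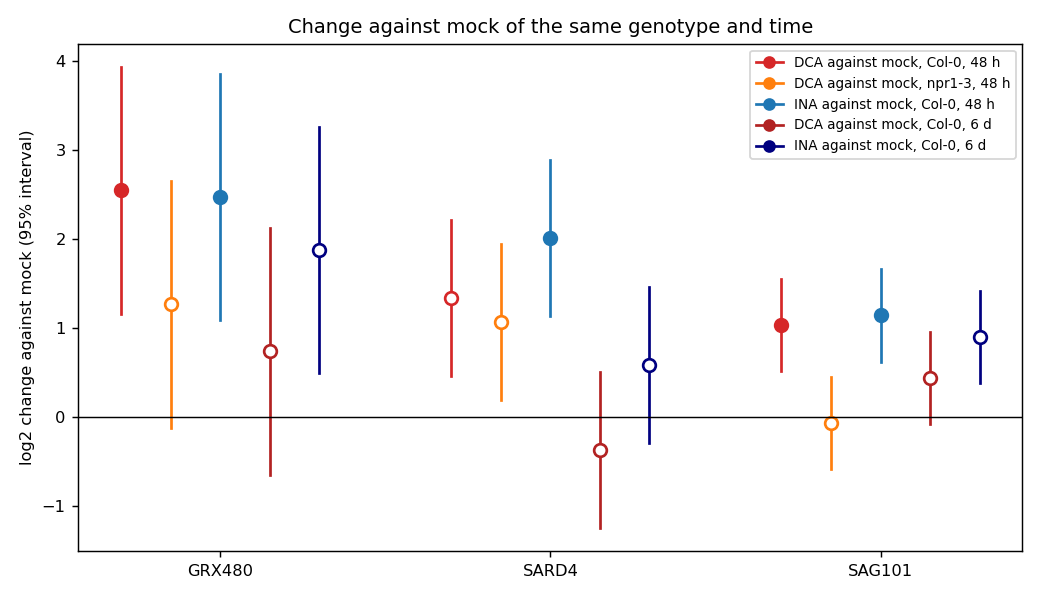
Log2 change against mock of the same genotype and time (vertical axis, points) with 95% intervals (lines) for GRX480, SARD4 and SAG101 (horizontal axis), filled where called. SAG101 in npr1-3 sits at -0.07, and GRX480 with DCA and INA at 48 h at 2.55 and 2.47.

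DCA and INA were compared directly as 1 pair of compounds at the same dose and at both times. At 48 h none of the 3 genes was called, nor was any other probe set (0%), although 1623 had an unadjusted p under 0.05, none of the 3 genes among them. The log2 difference, DCA minus INA, was 0.07 for GRX480 (-1.31 to 1.46, limma adjusted p = 0.976) and -0.10 for SAG101 (-0.62 to 0.41, adjusted p = 0.878). For SARD4 it was -0.68 ± 0.42 (-1.55 to 0.20, adjusted p = 0.508), with every DCA array below every INA array, as in 12% of probe sets. These intervals leave room for differences of over 2-fold in GRX480 and SARD4. At 6 d the differences were -1.14 for GRX480 (-2.52 to 0.24), -0.95 for SARD4 (-1.83 to -0.08) and -0.46 for SAG101 (-0.97 to 0.06). None was called, against 0.212% of all probe sets. Without INA replicate 1 the SARD4 difference was -1.68 and was called (adjusted p = 0.00935).

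The response at 6 d minus that at 48 h was called for none of the 3 genes, against 0.022% of all probe sets with DCA and 0% with INA. For SARD4 it was -1.71 ± 0.59 with DCA (-2.94 to -0.47, unadjusted p = 0.00925, limma adjusted p = 0.339) and -1.43 ± 0.59 with INA (-2.67 to -0.19, adjusted p = 1). For GRX480 with DCA it was -1.81 ± 0.94 (-3.77 to 0.15, adjusted p = 0.431), and for SAG101 with DCA -0.59 (-1.33 to 0.14, adjusted p = 0.474).

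Replicates of a group differed in a way that was not the same for the 3 genes. In DCA at 6 d, replicate 1 was the highest array for GRX480 and SAG101 and the lowest for SARD4. In INA at 6 d, replicate 1 was highest for GRX480 at 2955 and lowest for SARD4 at 151. At 48 h, replicate 1 was the lowest array for GRX480 in every group, mock included, and replicate 2 the highest in every group but npr1-3 mock. In npr1-3 with DCA, replicate 2 was the highest array for all 3 genes. The coefficient of variation of GRX480 was 6.03% in Col-0 with DCA at 48 h but 57.4% with INA at 48 h and 118.8% with DCA at 6 d. What sets these arrays apart was not tested.

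**Figure D4:**
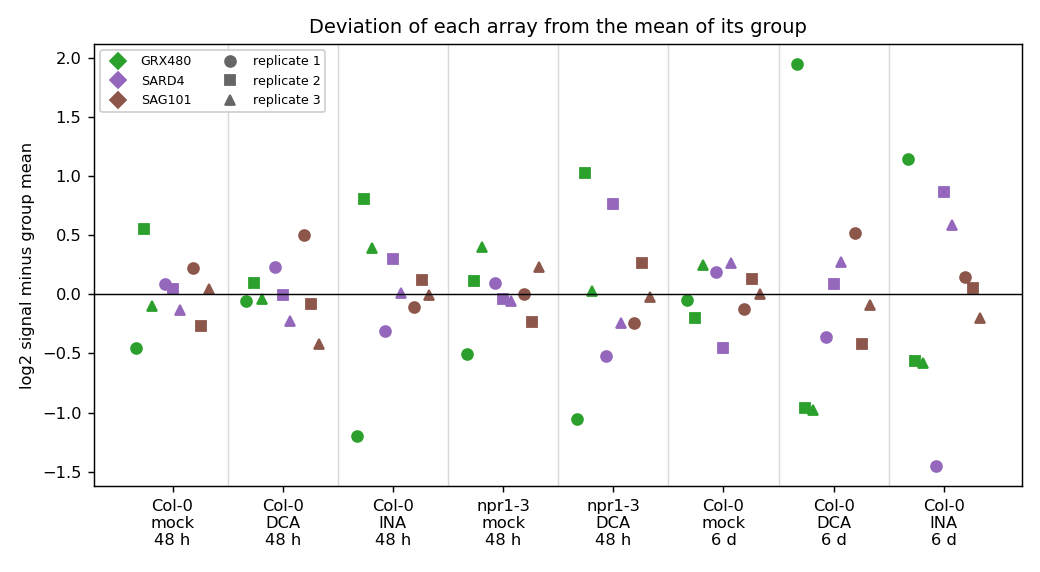
Log2 signal of each array minus the mean of its group (vertical axis) for the 3 genes (colours) in the 8 groups (horizontal axis), with marker shapes for replicate numbers. The points of GRX480 spread widely in most groups and closely in Col-0 with DCA at 48 h, and replicate 1 of INA at 6 d lies high for GRX480 and low for SARD4.

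Across the 24 arrays, the correlation of log2 signals ranked the other 7302 tested probe sets with a single gene by likeness to each member. The arrays share treatments, so these values describe the data only. Nearest to GRX480 were AT3G28940 (r = 0.923, and 0.967 over the 8 group means), GRXC2 (0.912 and 0.916), AT2G23680 (0.911 and 0.983), AT5G12880 (0.872 and 0.929) and AT3G25610 (0.872 and 0.964). After group means were taken out, GRXC2 still had r = 0.901. Nearest to SARD4 were AT3G28480 (0.950 and 0.989), AT5G60800 (0.929 and 0.948), AT3G60420 (0.915 and 0.941), NDB2 (0.909 and 0.934) and AT5G52540 (0.906 and 0.949). NDB2 encodes a mitochondrial NADH dehydrogenase. Nearest to SAG101 were AT3G19010 (0.909 and 0.976), AT3G01830 (0.891 and 0.926), AT5G52750 (0.889 and 0.928), AT4G11000 (0.871 and 0.938) and AT3G25610 (0.868 and 0.948), the last of which was also near GRX480. Between the members, GRX480 and SAG101 had r = 0.773, SARD4 and SAG101 0.637, and GRX480 and SARD4 0.582. With group means taken out, these were 0.54, -8.1e-05 and -0.19 in the same order.

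Other genes of salicylic acid signalling were few among the named probe sets. The list of salicylic acid response holds 17 genes, of which 3 were tested. At 48 h 1 of the 3 was called higher with DCA and 2 with INA, against 1.98% and 2.37% of all probe sets. CaBP22 (AT2G41090), which encodes a calmodulin-like protein, rose by 2.19 with DCA (limma adjusted p = 0.00044) and by 1.83 with INA (adjusted p = 0.000704). It also rose in npr1-3 with DCA, by 1.63 (adjusted p = 0.0144), a call lost without npr1-3 DCA replicate 2 (0.106) or 3 (0.0933) or without npr1-3 mock replicate 3 (0.084). WRKY6 (AT1G62300), a transcription factor of senescence and defence, rose with INA by 1.53 (adjusted p = 0.00423). Its change with DCA was 1.05 (adjusted p = 0.0724). With DCA it was lower in npr1-3 than in Col-0, by -0.91 (adjusted p = 0.0483), a call lost without any single array but npr1-3 DCA replicate 2 (0.0728 to 0.252). WRKY53 (AT4G23810), the other tested member and the 1 tested gene of the senescence list, had changes of 0.48 with DCA (adjusted p = 0.75) and 1.95 with INA (adjusted p = 0.113). CaBP22 also had a higher signal at 6 d than at 48 h in mock plants, by 1.42 (adjusted p = 0.0467), a call lost without any 1 of the 6 arrays (0.0574 to 0.204). Of 5 tested reference genes, 0 were called with either compound at 48 h, against 2.41% of all probe sets with DCA and 2.65% with INA.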

How the data were processed

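RNA of 24 samples was measured on ATH1 arrays, 1 array per sample. Per the submitters' processing notes, the authors made the deposited linear signal intensities with GCOS, a program of Affymetrix, whose version the notes do not give. The authors had scaled the arrays, which all have a mean of 500.1 after 2% of the values at either end are left out. They were used as scaled, without detection calls. All 24 columns were mapped to samples through their labels.

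A floor of 1 was put under the signals before log2. Besides 64 controls there are 22746 probe sets, and the 13648 whose mean log2 reached the 40th percentile, a signal of 74.2, were kept for testing. In R 4.3.3, limma 3.58.1 (lmFit and trended eBayes) fitted 1 mean per group over all arrays, with 16 residual degrees of freedom and prior degrees of freedom of 4.44 in the median. The fit gave two-sided tests of 10 pairs of groups and of 3 interactions. All adjusted p-values come from limma, by Benjamini and Hochberg within each comparison, and calls are at an adjusted p under 0.05. The procedure was tested on simulated data. Python 3.11.15 with matplotlib 3.10.9 drew the figures. With 3 arrays a group, the 95% interval extended to either side by 0.59 in the median on the log2 scale, and 0.83 for interactions.

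Names come from the platform annotation, in which 13513 probe sets have 1 gene, 503 have several and 8730 have no entry. Symbols came from RefSeq TAIR10.1, which 13436 of the first matched. Coordinates are left out because the annotation names no genome build. The members and the gene lists were chosen with earlier results of these data known. The genes named are the 3 members, the 5 most correlated with each over 24 arrays, and annotated list members that were called in a comparison or whose list has 5 or fewer of them. Reference genes, the remaining glutaredoxins and members called in no comparison are given as counts where they are many.

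Same-numbered replicates deviated together, with r over 0.1 in all 3 pairs, for INA against mock at 48 h (0.764, 0.775 and 0.289), DCA against INA at 6 d (0.748, 0.569 and 0.46), DCA against mock in npr1-3 (0.672, 0.655 and 0.117) and the genotypes in mock (0.357, 0.316 and, just over the limit, 0.1). Other comparisons did not reach this limit, among them npr1-3 against Col-0 with DCA (-0.072, 0.11 and 0.127). The alternatives tried were a floor of 32, no filter on dim probe sets, quantile normalization, a fit of the compared groups alone, the replicate number as a block, leaving out all replicate 1 arrays and leaving out each array. Those for list genes were chosen after seeing the data.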

Additional observations from a re-analysis of the deposited data

How the results depend on the processing

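For the 3 genes in 13 comparisons, 522 alternative values were computed: 460 kept direction and call, 35 lost a call, 13 gained one and 14 turned sign, all of these without a call on either side. The cause of these changes was not tested, and fits with arrays left out also had fewer arrays. With no filter on dim probe sets, calls were lost for GRX480 with DCA (2.55, adjusted p = 0.0628) and INA (2.47, 0.0687) at 48 h and in npr1-3 against Col-0 with DCA (-2.02, 0.071), and for SAG101 with DCA at 48 h (1.04, 0.0572). With quantile normalization the same calls were lost, at 2.49, 2.41, -2.03 and 0.98 (adjusted p 0.0539 to 0.0698). In a fit of the compared groups alone, calls at 48 h were lost for SAG101 with DCA (1.04, 0.115) and INA (1.14, 0.0706) and for GRX480 with INA (2.47, 0.117), and gained for SARD4 with DCA (1.34, 0.0148).

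With the replicate block, calls were gained for SARD4 with DCA at 48 h (1.34, 0.0397) and, with INA at 6 d, for GRX480 (1.88, 0.0197) and SAG101 (0.90, 0.0445). In these comparisons same-numbered replicates did not have r over 0.1 in all 3 pairs. The r was 0.0189, 0.14 and 0.341 for INA against mock at 6 d. For DCA against mock at 48 h it was -0.0988, 0.189 and 0.129. These values do not settle whether the samples were paired. Where all 3 pairs had r over 0.1, the block changed no call of the 3 genes. With all replicate 1 arrays left out, calls were lost for SAG101 with DCA at 48 h (0.90, 0.119) and in npr1-3 against Col-0 with DCA (-0.69, 0.0821). Calls were gained with INA at 6 d for GRX480 (1.28, 0.0458) and SARD4 (1.40, 0.0284), and for DCA against INA at 6 d for GRX480 (-1.54, 0.027) and SARD4 (-1.50, 0.0349). They were also gained with DCA in npr1-3 for GRX480 (1.54, 0.0322) and SARD4 (1.38, 0.0478), and for the change of the DCA response of GRX480 between times (-2.61, 0.0425).

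Leaving out 1 array at a time gave 2.32 to 2.82 for GRX480 with DCA and 2.07 to 3.07 with INA at 48 h, and 0.79 to 1.25 for SAG101 with DCA and 1.01 to 1.25 with INA. For SARD4 it gave 0.15 to 1.31 with INA at 6 d and -1.68 to -0.52 for DCA against INA. For npr1-3 against Col-0 with DCA it gave -2.54 to -1.50 for GRX480 and -1.28 to -0.82 for SAG101. The sign turned among single arrays left out for GRX480 with DCA at 6 d (-0.24 to 1.23), for DCA against INA at 48 h (-0.53 to 0.48) and for mock over time (-0.24 to 0.27). For SAG101 it turned for DCA against INA at 48 h (-0.35 to 0.11), with DCA in npr1-3 (-0.20 to 0.054) and between the genotypes in mock (-0.094 to 0.155). Without replicate 1 arrays it turned for GRX480 for DCA against INA at 48 h (-0.50) and with DCA at 6 d (-0.26), for SAG101 with DCA in npr1-3 (0.055), and for the DCA response of SARD4 between genotypes (0.11). Counts of called probe sets moved widely over the alternatives: 107 to 945 (329 in the model as reported) for DCA and 167 to 606 (362) for INA against mock at 48 h, 120 to 854 (250) for INA at 6 d, 0 to 165 (44) for DCA in npr1-3, and 709 to 3264 (1732) for npr1-3 against Col-0 with DCA. They were 0 to 1852 (11) for the genotypes in mock, 0 to 960 (29) for mock over time, 0 to 130 (29) for DCA against INA at 6 d, 0 to 43 (0) at 48 h, and 1 to 147 (3) for the DCA response between times. For DCA against mock at 6 d they were 0 to 2 (0), for the DCA response between genotypes 0 to 4 (1), and for the INA response between times 0 to 2 (0).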

Other observations

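UGT76B1 and SAG29, members of the gene lists, had mean log2 signals over the 24 arrays under the limit for the test. UGT76B1 (AT3G11340), a glycosyltransferase that inactivates salicylic acid and N-hydroxypipecolic acid, had signals of 64.1, 62.8 and 79.4 with INA at 48 h, all above the Col-0 mock arrays at 43.1, 3.49 and 24.1 and above DCA, where they were 24.8, 23.01 and 17.7. With no filter on dim probe sets the change with INA was 2.15 on the log2 scale (limma adjusted p = 0.262), a size that leans on the mock array at 3.49. The group means were 68.8 with INA and 23.6 in mock. SAG29 (AT5G13170), a sugar transporter gene of senescing leaves, had signals of 6.13, 4.25 and 6.35 with INA at 6 d and of 221, 199 and 119 in mock. Its DCA arrays at 6 d had 7.99, 243 and 235, so that replicate 1 lay near the INA arrays. With no filter the change with INA was -4.98 (adjusted p = 0.0609), which depends on the scale of such low signals and is no measured fold.

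GRXC2 and the CC-type glutaredoxin AT4G33040 differed between the genotypes with DCA, in opposite directions. GRXC2 was lower in npr1-3 by -0.72 on the log2 scale (limma adjusted p = 0.0173), a call lost without Col-0 DCA replicate 1 (0.0548) or 2 (0.0682) or npr1-3 DCA replicate 1 (0.0705). AT4G33040 was higher in npr1-3 by 1.79 (adjusted p = 0.00528), with signals of 88.6, 192 and 135 against 38.7, 50.6 and 28.6 in Col-0, without overlap. Of all probe sets, 6.36% were called higher in npr1-3 in this comparison and 21.2% were higher without overlap. AT3G04000, a reductase and the 1 tested gene of the list of TGA-dependent detoxification, was higher in npr1-3 by 1.40 (adjusted p = 0.0107), with 412, 600.1 and 477 against 169.7, 193 and 197. In mock plants AT3G04000 differed by 0.78 between the genotypes (adjusted p = 0.406) and GRXC2 by -0.40 (adjusted p = 0.447), in the same directions as with DCA. AT4G33040 had mock signals of 81.9, 175 and 159 in npr1-3 (mean 138.7) and 94.3, 70.8 and 55.03 in Col-0 (mean 73.4), which overlapped. Its mean with DCA in npr1-3 was 138.5. These genes are members of the gene lists, which were chosen with earlier results of these data known.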
